A study of Mus musculus with 24 samples.

Results

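Collagen genes were followed in the cortex of *Cep135* mouse embryos and in neural progenitor cultures made from it. The members are the 44 genes, of the 54658 in the table, whose symbol has the form of a collagen chain (Col, a type number, a and a chain number), a rule that reads the symbol and no measured value. They were grouped by the collagen they encode into 11 fibrillar chains (types I, II, III, V, XI, XXIV and XXVII), 8 basement membrane chains (types IV, XV and XVIII) and 25 others. All 24 libraries were used, in 8 groups of 3. Dorsal telencephalon was taken at E11.5 from mutants A, B and C and controls D, E and F, and at E14.5 from mutants 1, 2 and 6 and controls 3, 4 and 5. Cells of the same 6 E14.5 cortices were digested, plated as neural progenitors that form incipient neurospheres, and harvested after 12 or 24 h without drug treatment. Mutants are labelled *Cep135* (-/-) and controls *Cep135* (+/+). The mutant allele is a small CRISPR deletion carried by every cell of the embryo, and no cell type was sorted from the tissue. The labels name no litters, and the prefix of each title was read as the litter. By it, E11.5 embryos A and D form one litter, B, C, E and F another, and the E14.5 embryos a single litter. In the descriptions of mutants B and C the prefix differs from that of controls E and F, and their titles were followed. The mutant 6 cortex is E14.5 by its title and source, while its description says E11.5, and the title was followed.

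Collagens are secreted proteins whose chains wind around each other into a helix. Fibrillar types are laid down by fibroblasts and give connective tissue its tensile strength, whereas type IV forms the sheet-like network of basement membranes, to which types XV and XVIII are attached. In the embryonic brain the neural tissue itself holds little fibrillar collagen. The meninges, the fibroblast layers over the cortex, make most of it, and the pial surface and the blood vessels are wrapped in basement membrane that radial glia touch with their endfeet.

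Several of these genes are neighbours, and the GRCm38 positions below are from GENCODE vM21. *Col4a1* (ENSMUSG00000031502, chr8:11198423-11312826, minus strand) and *Col4a2* (ENSMUSG00000031503, chr8:11312805-11449287, plus strand) encode the ubiquitous type IV chains and are transcribed away from each other from starts that overlap by 22 bases. *Col3a1* (chr1:45311538-45349706, plus strand) and *Col5a2* (chr1:45374321-45503282, minus strand) lie tail to tail with 24614 bases between them. *Col6a2* and *Col6a1* lie 85161 bases apart on the minus strand of chromosome 10, and *Col18a1* is 326009 bases beyond *Col6a1*. Promoter windows from RefSeq (250 bases before to 50 after the start, GRCm38.p6) matched 35 of the 44 genes, in 38 windows.

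Shown are the shared bases of the *Col4a1* and *Col4a2* starts (chr8:11312805-11312826, plus strand), because both genes start there, and the 250 bases before the start of the meningeal *Col3a1* (chr1:45311288-45311537, plus strand), of *Col11a1* (chr3:114030290-114030539, plus strand), which did not pass the test between cortex and culture where *Col3a1* fell, and of *Col8a1* (chr16:57754738-57754987, minus strand), which was higher in culture. Capitals mark the GC box (GGGCGG or CCGCCC), the CCAAT box (CCAAT or ATTGG) and the TATA box (TATAAA or TTTATA) on either strand.
Col4a1 and Col4a2: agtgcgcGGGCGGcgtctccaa
Col3a1: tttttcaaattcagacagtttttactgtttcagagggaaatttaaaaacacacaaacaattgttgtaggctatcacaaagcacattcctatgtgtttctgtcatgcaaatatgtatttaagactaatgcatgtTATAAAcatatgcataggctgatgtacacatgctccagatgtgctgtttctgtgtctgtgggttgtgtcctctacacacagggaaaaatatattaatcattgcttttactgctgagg
Col11a1: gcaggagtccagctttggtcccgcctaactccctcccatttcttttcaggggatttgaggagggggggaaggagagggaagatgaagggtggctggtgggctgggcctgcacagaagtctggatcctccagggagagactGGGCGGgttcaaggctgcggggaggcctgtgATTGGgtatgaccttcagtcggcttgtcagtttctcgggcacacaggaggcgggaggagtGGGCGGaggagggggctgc
Col8a1: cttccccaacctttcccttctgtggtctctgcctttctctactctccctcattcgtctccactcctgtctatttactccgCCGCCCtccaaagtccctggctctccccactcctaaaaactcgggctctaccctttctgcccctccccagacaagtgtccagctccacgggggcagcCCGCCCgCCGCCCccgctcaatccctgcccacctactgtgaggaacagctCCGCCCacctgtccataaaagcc
The GC box was found in 60.5% of the 38 collagen windows and in 35.7% of all 32851 windows, the CCAAT box in 34.2% and 37.4%, and the TATA box in 13.2% and 13.6%. The stretch before *Col3a1* held a TATA box and neither of the other motifs, the one before *Col8a1* held only GC boxes, and the one before *Col11a1* held GC and CCAAT boxes. Such matches describe these letters and no binding was measured.

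Values are read counts divided by 1 size factor per library, called normalised read counts here. A value near 1 is 1 read, since 1 read was worth 0.645 to 1.69 over the libraries, and intervals of counting are not given because PCR copies cannot be told apart. Libraries were primed at the 3′ end of the RNA, so a count does not grow with transcript length and 2 genes are compared only as reads per transcript end. Reads on genes numbered 4732781 to 11645213 over 23 libraries, leaving out E11.5 control D, whose reads could not be checked. E11.5 control F stood apart among the collagens, as given below for several of the results it touches. At 24 h the mutant libraries were deeper (7903426 to 11645213 reads) than the controls (4732781 to 5709443) and held more *Gm42418*, an RNA with ribosomal sequence (20.5% to 23.0% of counts against 6.26% to 13.9%), with no overlap. *Cep135* itself had 246 to 336 in E11.5 mutants and 293 to 375 in controls, with like overlap in the other sample types, and reads at the 3′ end lie outside a small deletion, so this does not check the genotype labels.

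Summed over all 44 genes, collagen took 5313 to 13432 (median 10813) normalised reads in E11.5 cortices and 3378 to 4821 (median 4279) in E14.5 cortices. The sums were 745 to 1881 (median 1146) in 12 h cultures and 827 to 2241 (median 1229) in 24 h cultures. The 2 ages did not overlap, and the cultures lay below every cortex. Fibrillar chains were the largest class at E11.5, at a median of 67.3% of the collagen sum, and 51.7% at E14.5. Basement membrane chains took 22.0% and 34.2% at these ages and 18.6% in 12 h cultures. The remaining chains took 10.7% at E11.5, 13.7% at E14.5 and 25.3% at 12 h, and in the 12 h cultures the share was 28.0% to 43.5% in mutants against 19.2% to 22.7% in controls. At 24 h these shares overlapped, at 24.2% to 40.9% in mutants and 21.0% to 26.1% in controls. The split at 12 h rested on *Col8a1*, which held 169, 584 and 153 of this class's 356, 819 and 329 normalised reads in mutants. In controls it held 37.8, 52.8 and 12.1 of 233, 215 and 160.

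**Figure D1:**
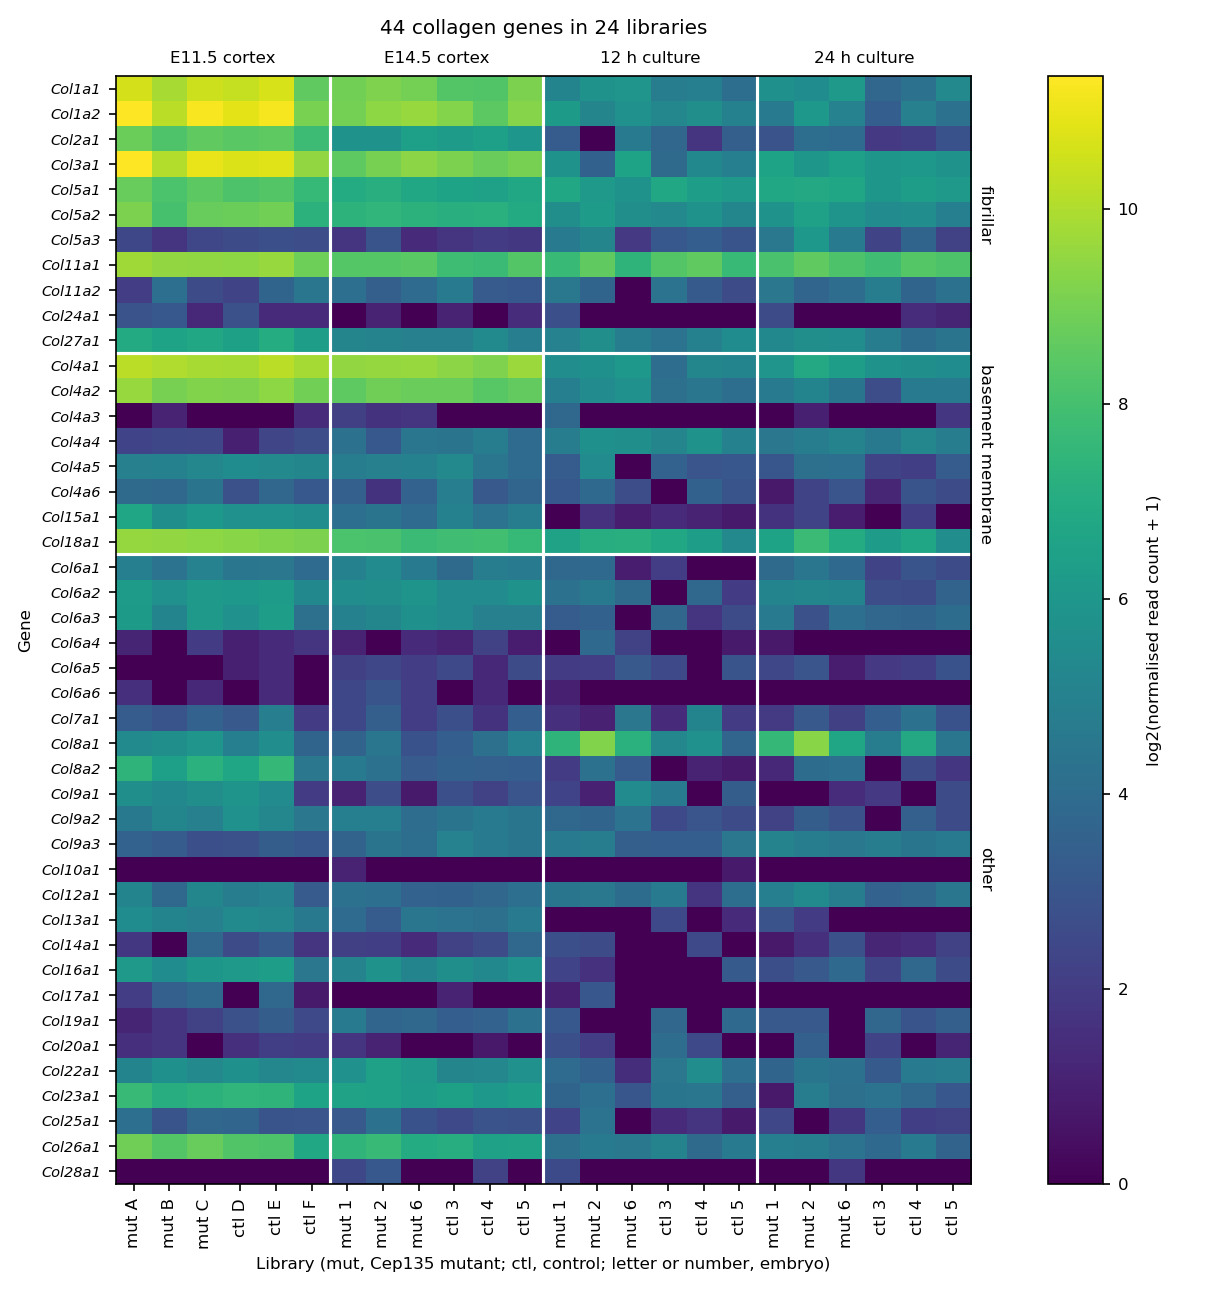
The colour gives log2 of the normalised read count plus 1 for each of the 44 collagen genes (rows, by class) in each of the 24 libraries (columns, by sample type, genotype and embryo). Col1a1, Col1a2, Col3a1, Col4a1 and Col4a2 are brightest in the cortices and dim in the cultures, Col11a1 stays bright in all sample types, and Col8a1 is brightest in the mutant cultures.

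The type I and III chains led by reads in the E11.5 cortex. *Col1a2* and *Col1a1*, the chains of type I collagen, had 545 to 2627 (median 2120.2) and 380.1 to 1643 (median 1376) at E11.5, and *Col3a1*, which forms type III fibrils beside them, had 739 to 2587 (median 1743). *Col1a2* exceeded *Col1a1* in each of the 12 cortices, at 1.03 to 1.89 times. *Col4a1* exceeded *Col4a2* in each of the 12 as well, at 1.47 to 2.01 times. At E14.5 *Col4a1* stood above *Col1a1*, *Col1a2* and *Col3a1* in 5 of the 6 cortices. In 24 h cultures the ratio of *Col4a1* to *Col4a2* ran from 1.89 to 10, and *Col1a2* exceeded *Col1a1* in only 2 of the 6. At the low end, 10 members did not reach a mean of 10 in the libraries of any comparison, among them *Col10a1* of growth plate cartilage, which was above 0 in only 2 libraries (highest value 1.13). *Col17a1* of epithelia and *Col7a1*, the anchoring fibril chain of skin, reached 13.4 and 34.1 at most. Of the 44, 17 members were tested in every comparison.

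Markers of the cells known to make these collagens were present in the cortices. The meningeal fibroblast list (14 genes, none of them a collagen) summed to 1174 to 3068 (median 2226) at E11.5 and 841 to 1138 (median 1023) at E14.5. In cultures the same list summed to 65.2 to 121 at 12 h and 111 to 218 at 24 h. Endothelial markers (12 genes) summed to 1765 to 2078, 1512 to 1801, 60.0 to 179 and 72.4 to 209 in the same order, and mural cell markers (10 genes) to 686 to 963, 662 to 883, 53.5 to 348 and 30.3 to 211. No gene of the 3 lists was at 0 in all 6 libraries of a sample type, save 1 meningeal marker at 24 h. Cartilage markers were nearly absent: *Sox9*, which neural progenitors also use, made 97.1% to 98.6% of that list's sum, and at most 3 of its 9 genes averaged 10 or more in a sample type. Dorsal progenitor and cortical neuron markers all averaged 10 or more in every sample type.

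**Figure D2:**
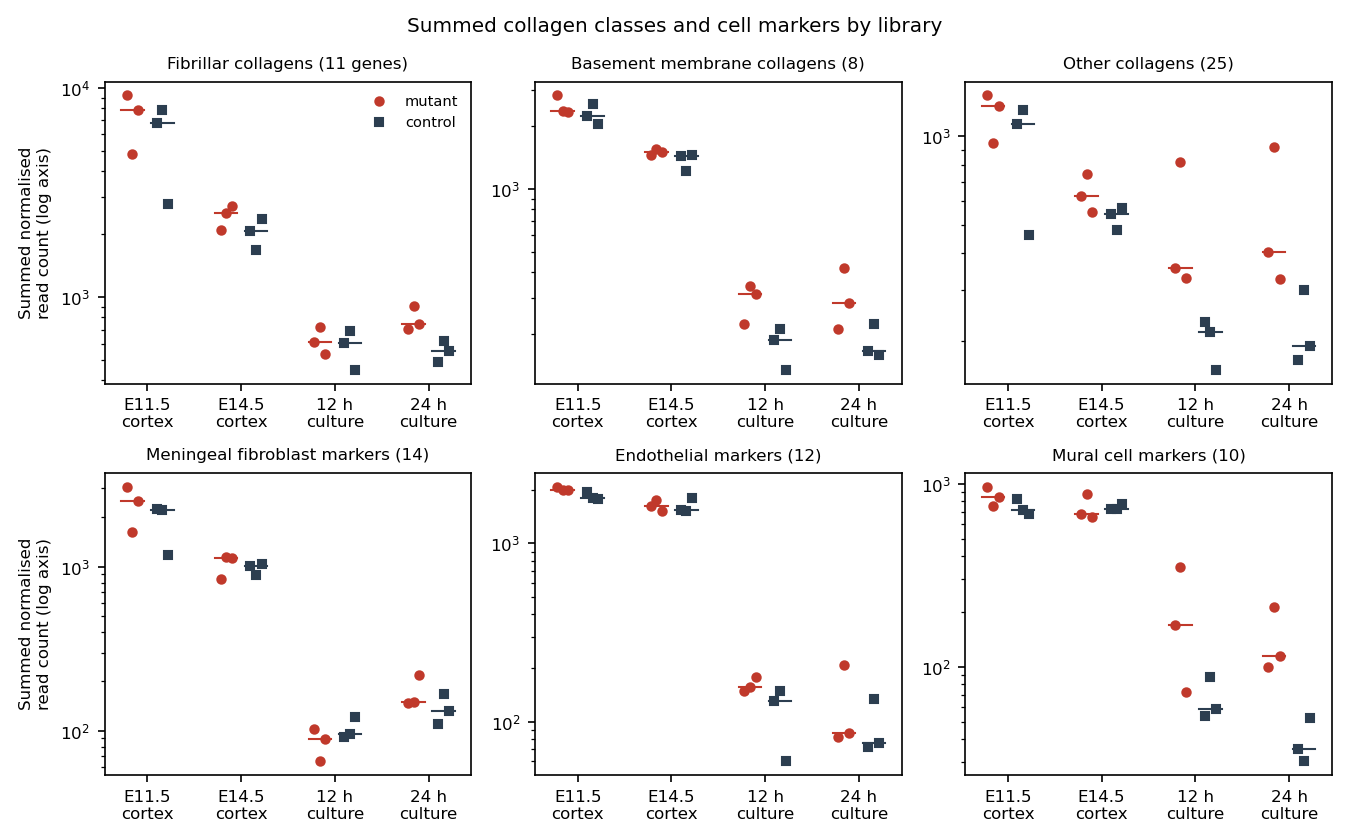
Each point is the summed normalised read count of 1 library (log axis) for a collagen class or a marker list, by sample type, with mutants as circles, controls as squares and a line at each group's median. The fibrillar sums of 2802 to 9230 at E11.5 lie above those of 1677 to 2723 at E14.5, and all 3 marker lists are lower in every culture than in any cortex.

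Fibrillar collagens fell between E11.5 and E14.5. The comparison asked how collagen RNA changes while the cortex grows, over the 12 cortices with genotype as a term. Of 30 members tested, 18 fell and 2 rose, where 53.1% of all 13650 genes tested were called and 29.3% were called lower. The median log2 fold change of the members was -0.94, against -0.08 for all genes. Of 9 fibrillar chains tested, 8 fell, as did 4 of 7 basement membrane chains and 6 of 14 others. In bulk tissue fewer cells of a type and less RNA per cell cannot be told apart. The E14.5 embryos share a title prefix, read as the litter, that no E11.5 embryo carries, so age and litter cannot be told apart either.

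*Col3a1* had 2587, 1061 and 2013 in E11.5 mutants and 1723, 1762 and 739 in controls, against 371, 517 and 677 in mutants and 547, 428 and 521 in controls at E14.5. The ages did not overlap (log2 fold change -1.60 ± 0.24 SE, adjusted p = 3.2e-05). For *Col1a1* the E11.5 values were 1596, 929 and 1456 in mutants and 1297, 1643 and 380.1 in controls, and the E14.5 values 491, 571 and 514 in mutants and 322, 306 and 561 in controls. All E11.5 libraries but control F were above the E14.5 range (log2 fold change -1.29 ± 0.28 SE, adjusted p = 0.000917). Its partner *Col1a2* gave log2 fold change -1.49 ± 0.30 SE, adjusted p = 0.000594, again with control F (545) inside the E14.5 range. The type V chains, which set the diameter of type I fibrils, fell alike: *Col5a1* from a range of 194 to 425 (median 306) to one of 90.7 to 142 (median 109) (log2 fold change -1.45 ± 0.13 SE, adjusted p = 2.26e-07), without overlap, and *Col5a2* with log2 fold change -1.24 ± 0.23 SE, adjusted p = 0.000296. For *Col5a2* control F (157) lay inside the E14.5 range. *Col11a1*, a chain of the minor fibrillar type XI, went from a range of 458 to 862 (median 723) to one of 212 to 346 (median 323) (log2 fold change -1.26 ± 0.13 SE, adjusted p = 6.36e-07), and *Col27a1* from a range of 80.1 to 131 to one of 27.9 to 42.8 (log2 fold change -1.62 ± 0.16 SE, adjusted p = 4.44e-07). *Col2a1*, the main collagen of cartilage that early neuroepithelium also expresses, had the steepest fall of the class, from a range of 221 to 441 to one of 54.2 to 85.3 (log2 fold change -2.29 ± 0.17 SE, adjusted p = 1.61e-08). The exception was *Col11a2*, which did not pass the test.

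*Col4a1* and *Col4a2* had smaller log2 fold changes, a difference between classes that was not tested. *Col4a1* had 1148, 1015 and 934 in E11.5 mutants, 917, 1175 and 900.1 in E11.5 controls, 724, 747 and 785 in E14.5 mutants and 667, 572 and 798 in E14.5 controls. The lowest E11.5 value stood above the highest E14.5 value (log2 fold change -0.50 ± 0.10 SE, adjusted p = 0.000415). *Col4a2* moved with it (log2 fold change -0.56 ± 0.11 SE, adjusted p = 0.000601), and its adjusted p was 0.0704 with all 24 libraries in one fit. *Col18a1*, whose fragment endostatin acts on vessels, fell from a range of 561 to 745 (median 672) to one of 196 to 286 (median 235) (log2 fold change -1.46 ± 0.09 SE, adjusted p = 3.07e-09), the smallest p of any member. *Col15a1*, its relative at vessel walls, fell from a range of 45.9 to 103 to one of 14.9 to 30.6 (log2 fold change -1.47 ± 0.23 SE, adjusted p = 5.22e-05). *Col4a4*, a chain of the specialised network of kidney and eye, went the other way at low level, from a range of 1.01 to 5.44 to one of 7.73 to 26.9 (log2 fold change 1.97 ± 0.38 SE, adjusted p = 0.000405). *Col4a5* did not pass (log2 fold change -0.46 ± 0.22 SE, adjusted p = 0.0937), save without E14.5 control 3 (adjusted p = 0.0327).

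Among the other chains, the type VI genes of connective tissue microfibrils did not pass: *Col6a1* had 14.8 to 31.7 at E11.5 and 14.1 to 43.1 at E14.5 (log2 fold change 0.21 ± 0.23 SE, adjusted p = 0.453), and *Col6a2* 38.1 to 77.8 and 43.5 to 57.2 (log2 fold change -0.33 ± 0.18 SE, adjusted p = 0.127). Without control F *Col6a2* passed (adjusted p = 0.0195). *Col8a2* and *Col9a1* had the largest falls, each with log2 fold change -2.89, and each rested on 5 of the 6 E11.5 libraries. *Col8a2* read 169, 83.7 and 153 in E11.5 mutants and 106, 186 and 21.8 in controls, against 8.61 to 23.7 at E14.5, and *Col9a1* read 49.7, 37.9 and 47.6 in mutants and 57.4, 43.5 and 3.11 in controls, against 0.783 to 6.97. Control F lay within the E14.5 range for both. *Col26a1* (-1.17), *Col23a1* (-0.88), *Col13a1* (-1.0) and *Col8a1* (-1.25) also fell on the log2 scale. Control F lay inside the E14.5 range for *Col26a1* (111), *Col13a1* (23.3) and *Col8a1* (11.7), as did control D for *Col8a1* (29.2). With all 24 libraries in one fit *Col23a1* and *Col13a1* did not pass (adjusted p = 0.12 and 0.122). *Col9a3*, of the type IX collagen that coats fibrils, rose from a range of 5.77 to 11 to one of 11.3 to 31.8 (log2 fold change 1.21 ± 0.28 SE, adjusted p = 0.00171). Of the 30 members, 12 did not overlap between the ages, 10 of them lower, where 30.5% of all genes did not overlap and 14.9% were lower without overlap. Both members that rose, and *Col9a1*, had a mean of 10 or more at only 1 of the ages, so they passed the filter through that age.

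Control F had the lowest value of the 6 E11.5 libraries for *Col1a1*, *Col1a2*, *Col3a1*, *Col5a1*, *Col5a2* and *Col11a1*, and the lowest meningeal marker sum, 1174 against 1619.5 to 3068 in the other 5. Its *Col4a1* (900) was close to that of control D (917). Without control F, 23 members fell and 3 rose of 31 tested. Meningeal markers moved with the fibrillar chains: of 13 tested, 7 fell (led by *Crabp2*, *Foxd1* and *Twist1*) and 2 rose (*Slc6a13* and *Dcn*). Of 12 endothelial markers 6 fell and 2 rose, and of 9 mural markers 3 fell and 3 rose. The part of these cells in the collagen differences was not tested.

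**Figure D3:**
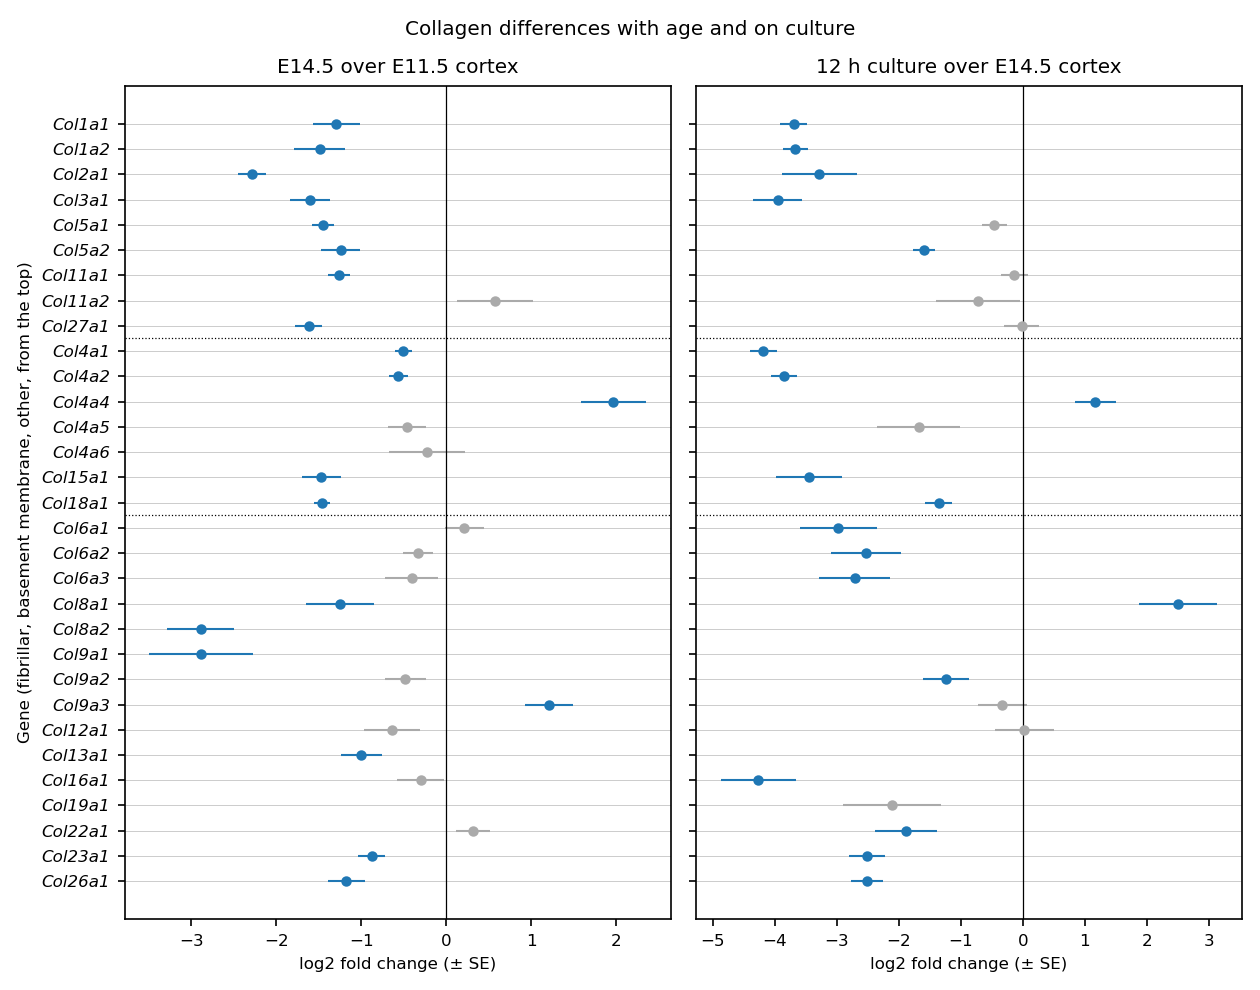
Points are log2 fold changes with SE bars for each collagen gene tested, for E14.5 over E11.5 cortex (left, 30 genes) and 12 h culture over E14.5 cortex (right, 27 genes), blue where the adjusted p was under 0.05. With age 8 of 9 fibrillar chains lie left of 0 in blue, and on culture Col1a1, Col1a2, Col3a1, Col4a1 and Col4a2 lie between -3.67 and -4.19 while Col11a1 and Col27a1 lie near 0; both panels use the E14.5 cortices.

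Taking E14.5 cortex cells into culture was accompanied by the loss of most of the type I and III and the main type IV collagen RNA. This comparison set the 6 cultures at 12 h beside the 6 cortices they came from, with genotype as a term. Of 27 members tested, 17 fell and 2 rose, where 30.2% of all 13601 genes were called and 16.1% were called lower. The median log2 fold change of the members was -2.10, against -0.06 over all genes. Of the 27, 15 did not overlap, all lower in culture, where 14.4% of all genes did not overlap and 7.76% were lower without overlap. *Col2a1*, *Col6a1*, *Col6a3*, *Col15a1*, *Col16a1* and *Col19a1* had a mean of 10 or more only in the cortices and so passed the filter through them. Of the other 21 members 12 fell and 2 rose, with a median log2 fold change of -1.60.

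*Col4a1* went from 724, 747 and 785 in mutant cortices and 667, 572 and 798 in control cortices to 46.8, 50.5 and 66.3 in mutants and 15.7, 36.4 and 33.4 in controls in their 12 h cultures (log2 fold change -4.19 ± 0.21 SE, adjusted p = 2.33e-09). *Col4a2* followed, from a range of 338 to 470.3 to one of 15.9 to 52 (log2 fold change -3.85 ± 0.21 SE, adjusted p = 4.88e-09). Neither gene's cultures came near a cortex value. *Col1a1* fell from a range of 306 to 571 to one of 15.9 to 59.1 (log2 fold change -3.70 ± 0.22 SE, adjusted p = 8.88e-09) and *Col1a2* from a range of 356 to 785 to one of 31.1 to 73.1 (log2 fold change -3.67 ± 0.20 SE, adjusted p = 4.88e-09). For *Col3a1* the cultures read 56.5, 10.5 and 95.8 in mutants and 14.2, 38.7 and 28.8 in controls, against 371 to 677 in cortex (log2 fold change -3.95 ± 0.40 SE, adjusted p = 2.73e-06). Every culture lay below every cortex for these 5 genes. *Col15a1* dropped to 0 to 2.1, which is 0 to 2 reads (log2 fold change -3.46 ± 0.53 SE, adjusted p = 0.000169), and *Col16a1* to 0 to 8.35 (log2 fold change -4.27 ± 0.61 SE, adjusted p = 8.74e-05). At such counts the size of the fold depends on the added 1. The type VI chains fell as well, *Col6a1* with a log2 fold change of -2.98 ± 0.63 and *Col6a2* with -2.53 ± 0.56 (adjusted p = 0.00215 and 0.00305), and *Col2a1* with log2 fold change -3.29 ± 0.61 SE, adjusted p = 0.000809. *Col26a1* and *Col23a1* each gave a log2 fold change of -2.51, and *Col22a1* gave -1.88.

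A second set of chains was little lower or not lower. *Col11a1* had 329, 327 and 346 in mutant and 229, 212 and 319 in control cortices, and 199, 384 and 168 in mutants and 319, 387 and 199.7 in controls in the cultures, with overlapping ranges (log2 fold change -0.14 ± 0.22 SE, adjusted p = 0.655). *Col5a1* had 90.7 to 142 and 55.5 to 110.1 (log2 fold change -0.47 ± 0.20 SE, adjusted p = 0.0913), and passed without the culture of control 3 (adjusted p = 0.0403) and with all 24 libraries in one fit (0.0309). *Col27a1*, named after its values were seen, had 27.9 to 42.8 and 18.9 to 48.4. *Col11a1* was thus the most abundant fibrillar chain by reads in every 12 h culture, whereas *Col1a1*, *Col1a2* and *Col3a1* each exceeded it in most cortices. Smaller falls were found for *Col18a1*, from a range of 196 to 286 to one of 40.2 to 139 (log2 fold change -1.36 ± 0.22 SE, adjusted p = 0.00025), and *Col5a2*, from a range of 124 to 176 to one of 36.4 to 75.8 (log2 fold change -1.60 ± 0.18 SE, adjusted p = 9.16e-06). *Col4a5* did not pass (log2 fold change -1.68 ± 0.67 SE, adjusted p = 0.0676), with values of 8.77, 43.1 and 0 in mutant cultures, and passed without the culture of mutant 2 (adjusted p = 0.0122), with a pseudocount of 5 (0.0476) and with all 24 libraries in one fit (0.0189).

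*Col8a1* and *Col4a4* rose. *Col8a1* encodes a short-chain collagen of vessel walls and of the membrane beneath corneal endothelium. It had 11.3, 21 and 6.26 in mutant and 9.41, 17.4 and 32.3 in control cortices, and 169, 584 and 153 in mutant and 37.8, 52.8 and 12.1 in control cultures (log2 fold change 2.51 ± 0.63 SE, adjusted p = 0.00718). Each mutant embryo was higher in culture than in cortex, as were controls 3 and 4, while control 5 was lower. *Col4a4* went from a range of 7.73 to 26.9 to one of 26.3 to 54 (log2 fold change 1.17 ± 0.33 SE, adjusted p = 0.0151), with overlapping ranges.

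Markers of the collagen-making cells moved in the same comparison. All 10 meningeal markers tested fell, as did 11 of 12 endothelial and 6 of 8 mural markers, and none of these rose. Their median log2 fold changes were -3.45, -4.23 and -3.40. Microglial markers also fell, 7 of 7, while 7 of 8 erythroid genes rose. In the 12 h cultures only 3 meningeal, 6 endothelial, 4 mural and 0 microglial markers averaged 10 or more. The other tested markers of these lists passed the filter through the cortices, where they were higher. The part of these cells in the collagen values was not tested.

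Between 12 and 24 h in culture no member of 22 passed the limma test, where 0.292% of all 13359 genes did. EdgeR and DESeq2 on whole reads called none of the 22 either, and 3 members had an unadjusted p under 0.05, where 9.64% of all genes had one. *Col3a1* had 10.5 to 95.8 (median 33.8) at 12 h and 56.3 to 95.3 (median 64.3) at 24 h (log2 fold change 1.13 ± 0.40 SE, adjusted p = 0.335). *Col4a1* had 15.7 to 66.3 and 45 to 116 (log2 fold change 0.73 ± 0.26 SE, adjusted p = 0.335), and passed only with all 24 libraries in one fit (adjusted p = 0.0349). *Col1a2* had 31.1 to 73.1 and 9.56 to 65.8 (log2 fold change -0.76 ± 0.35 SE, adjusted p = 0.508). All 3 ranges overlapped. No member of the 22 was without overlap between the times, where 0.928% of all genes were.

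No collagen passed the test between mutant and control cortices. At E11.5 0 of 30 members were called by limma, where 0.0149% of 13406 genes were, and 0 with the litter as a block. At E14.5 0 of 30 were called, where 0.0736% of 13583 genes were, and 0 by edgeR and DESeq2. Over the 12 cortices with age as a term 0 of 30 were called, where 0.139% of 13650 genes were. An unadjusted p under 0.05 was found for 3 members at E11.5, 3 at E14.5 and 5 over the 12 cortices, each of them higher in mutants, where 3.82%, 4.48% and 4.91% of all genes were higher at that level. The members' median log2 fold change was 0.29 at E11.5 and 0.16 at E14.5, against 0.02 and 0.01 for all genes. Without control F the E11.5 median of the members was -0.07.

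*Col26a1*, which encodes a small secreted collagen, had the smallest p in these 3 comparisons. It read 483, 321 and 422 in E11.5 mutants and 307, 294 and 111 in controls (log2 fold change 0.90 ± 0.33 SE, adjusted p = 0.617), without overlap, and without control F the log2 fold change was 0.42. At E14.5 it read 172, 201 and 127 in mutants and 133, 90.0 and 92.4 in controls (log2 fold change 0.66 ± 0.22 SE, adjusted p = 0.471), and mutant 6 fell below control 3. Over both ages the values gave log2 fold change 0.78 ± 0.22 SE, adjusted p = 0.293. *Col18a1* read 745, 729 and 698 in mutants and 646, 585 and 561 in controls at E11.5, every mutant above every control (log2 fold change 0.28 ± 0.11 SE, adjusted p = 0.627), but overlapped at E14.5 (log2 fold change 0.22 ± 0.16 SE, adjusted p = 0.695). Over the 12 cortices it gave log2 fold change 0.25 ± 0.09 SE, adjusted p = 0.456. Groups did not overlap for 3 of 30 members at E11.5, where 13.3% of all genes did not, and for 4 at E14.5, where 13.7% did not.

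At E14.5 *Col11a1* was 329, 327 and 346 in mutants and 229, 212 and 319 in controls (log2 fold change 0.42 ± 0.17 SE, adjusted p = 0.512), without overlap. *Col22a1*, a collagen of tissue junctions, was 51.9, 88.3 and 67.3 in mutants and 35.3, 37.7 and 52.3 in controls (log2 fold change 0.70 ± 0.26 SE, adjusted p = 0.507). *Col1a1* had 491, 571 and 514 in mutants and 322, 306 and 561 in controls (log2 fold change 0.46 ± 0.21 SE, adjusted p = 0.547), and without control 5 its adjusted p was 0.0462. Its partner *Col1a2* overlapped between the genotypes (log2 fold change 0.33 ± 0.23 SE, adjusted p = 0.663). Over both ages, *Col5a1* (0.39 ± 0.13, adjusted p = 0.404), *Col11a1* (0.36 ± 0.13, adjusted p = 0.442) and *Col6a1* (0.52 ± 0.23, adjusted p = 0.523) had positive log2 fold changes.

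*Col1a1*, *Col1a2*, *Col4a1* and *Col4a2* did not pass between genotypes at E11.5. *Col1a1* gave log2 fold change 0.47 ± 0.44 SE, adjusted p = 0.808, and -0.18 without control F, and *Col1a2* gave log2 fold change 0.53 ± 0.48 SE, adjusted p = 0.804, and -0.12 without control F. *Col4a1* (0.06) and *Col4a2* (0.11) were near 0 on the log2 scale and also changed sign without control F. *Col4a6*, a minor type IV chain named after its values were seen, read 14.2, 13.4 and 19.5 in E11.5 mutants and 6.05, 12.5 and 7.77 in controls, every mutant above every control (log2 fold change 0.81 ± 0.41 SE, adjusted p = 0.681), and passed the filter through the mutants. At E14.5 its log2 fold change was of opposite sign (-1.01 ± 0.64), with overlap. At E14.5 *Col4a1* gave 0.16 ± 0.14 and *Col4a2* 0.13 ± 0.15. Over the 12 cortices *Col1a1* gave 0.47 ± 0.28, *Col1a2* 0.43 ± 0.30, *Col4a1* 0.11 ± 0.10 and *Col4a2* 0.12 ± 0.11, each with SE and with adjusted p of 0.655 to 0.801. Without control F *Col1a1* gave 0.18 and *Col1a2* 0.13. *Col3a1* read 371, 517 and 677 in E14.5 mutants and 547, 428 and 521 in controls, with overlapping ranges.

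Other cell types moved with genotype in the cortices. At E14.5 microglial markers (8 genes) summed to 952, 1069 and 839 in mutants and 434, 456 and 536 in controls, and cortical neuron markers (8 genes) to 20881, 20420.4 and 23703 and 28079.7, 30248 and 29518, both without overlap. *Cx3cr1*, a receptor of microglia, was higher in mutants (log2 fold change 1.12 ± 0.16 SE, adjusted p = 0.0269), and *Neurod6*, a transcription factor of cortical neurons, was lower (log2 fold change -0.87 ± 0.13 SE, adjusted p = 0.0481). Liver transcripts summed to 13.5, 6.62 and 6.26 in E14.5 mutants and 10.6, 909 and 904 in controls, with overlap, and to 186, 15.6 and 758 in E11.5 mutants and 11.1, 14.2 and 5.44 in controls, without overlap. The part of these cells in the collagen values was not tested.

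**Figure D4:**
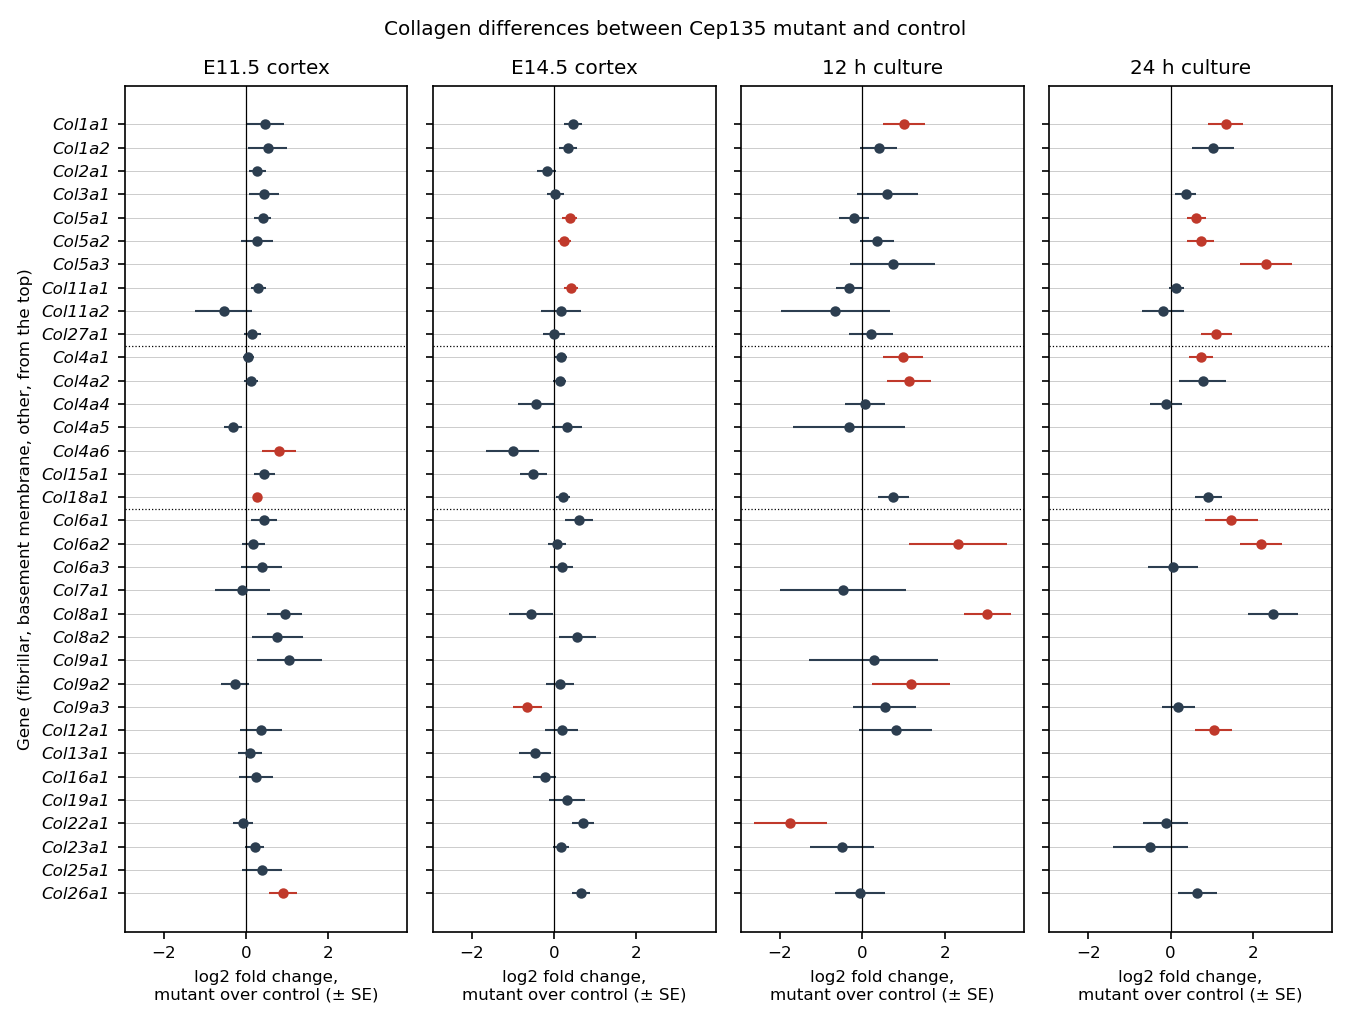
Points are log2 fold changes of mutant over control with SE bars for each collagen gene tested in the 4 sample types (n = 3 per genotype), red where the mutant and control values did not overlap. No point passed an adjusted p of 0.05, and at 24 h 18 of 22 points lie right of 0.

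In the cultures the members with the smallest p were higher in mutants, with *Col8a1* and *Col6a2* in front. At 12 h 0 of 24 members passed the limma test, where 0.00% of 13389 genes did (650 at an unadjusted p under 0.05). EdgeR called 0 members and 0 of all genes there, and DESeq2 called 1 member and 9 of all 13385 genes. At 24 h 0 of 22 members passed limma, where 0.271% of 13300 genes did. EdgeR called 0 members and 40 of all genes there, and DESeq2 called 2 members and 182 of all 13287 genes. An unadjusted p under 0.05 was found for 1 member at 12 h and for 11 of 22 at 24 h, where 2.24% and 4.53% of all genes had one and were higher, and each of these was higher in mutants. The median log2 fold change of the members was 0.38 at 12 h and 0.74 at 24 h, against -0.02 and -0.01 for all genes. At 24 h 9 members did not overlap, all higher in mutants, where 7.15% of all genes were higher without overlap, and at 12 h 6 members were higher without overlap, where 5.09% of all genes were. The log2 fold change was above 0 for 18 of 22 members at 24 h, where it was for 48.3% of all genes. *Col5a3*, *Col6a1* and *Col6a2* had a mean of 10 or more at 24 h only in mutants, and so passed the filter through the group where they were higher. Of the other 19 members at 24 h, 8 had an unadjusted p under 0.05, 6 did not overlap, 15 had a log2 fold change above 0, and the median was 0.65. At 12 h *Col4a5*, *Col5a3*, *Col6a2*, *Col7a1*, *Col9a2* and *Col22a1* had such a mean in 1 genotype only, and of the other 18 members 4 were higher without overlap and 0 lower.

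*Col8a1* had 169, 584 and 153 in mutant and 37.8, 52.8 and 12.1 in control cultures at 12 h (log2 fold change 3.04 ± 0.57 SE, adjusted p = 0.654). The lowest mutant was above the highest control. With DESeq2, with no filter on low values and with all 24 libraries in one fit it was called (adjusted p = 2.09e-05, 0.000616 and 0.0494). At 24 h the same embryos had 189, 641 and 105 in mutants and 27.3, 116 and 21.3 in controls (log2 fold change 2.48 ± 0.61 SE, adjusted p = 0.109), where mutant 6 fell below control 4. Without control 4 its adjusted p was 0.0137, with log2 fold change 3.22. In their cortices the genotypes overlapped, at 11.3, 21 and 6.26 in mutants and 9.41, 17.4 and 32.3 in controls. In culture mutant 2 was highest and control 5 lowest at both times. At E11.5 *Col8a1* read 41.3, 49.1 and 59.1 in mutant and 29.2, 46 and 11.7 in control cortices, also with overlap (log2 fold change 0.94 ± 0.42 SE, adjusted p = 0.67).

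Markers of choroid plexus and cortical hem, tissue at the edge of the dorsal telencephalon, moved with *Col8a1* in culture as a sum, though not each of them. Their sum (8 genes) was 9495, 16701 and 5290.3 in mutant and 2995, 4602 and 2455 in control cultures at 12 h, and 7948, 17458 and 5686 in mutants and 2936, 4569 and 1990.3 in controls at 24 h. The groups did not overlap, and within each genotype the embryos stood in the same order as for *Col8a1* at both times. *Ttr*, the transthyretin made by choroid plexus, was 84.8% of the sum at 12 h, at 91.2% in mutants and 64.6% in controls. It passed the test at 24 h (log2 fold change 2.35 ± 0.45 SE, adjusted p = 0.0444). So did *Clic6*, a chloride channel protein of choroid plexus (2.74 ± 0.52), while *Rspo3*, a Wnt signal agonist of the hem, was lower in mutants (-0.92 ± 0.14). In the E14.5 cortices the sum was 8076, 6942 and 1364 in mutants and 5471, 5679 and 3636 in controls, and mutant 6 was lowest. In the E11.5 cortices it was 1826, 1842 and 1796 in mutants and 1398, 1619 and 1614 in controls, without overlap. Of the 8 genes, 1 was at 0 in every library of each culture time. The part of this tissue in the *Col8a1* difference was not tested.

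**Figure D5:**
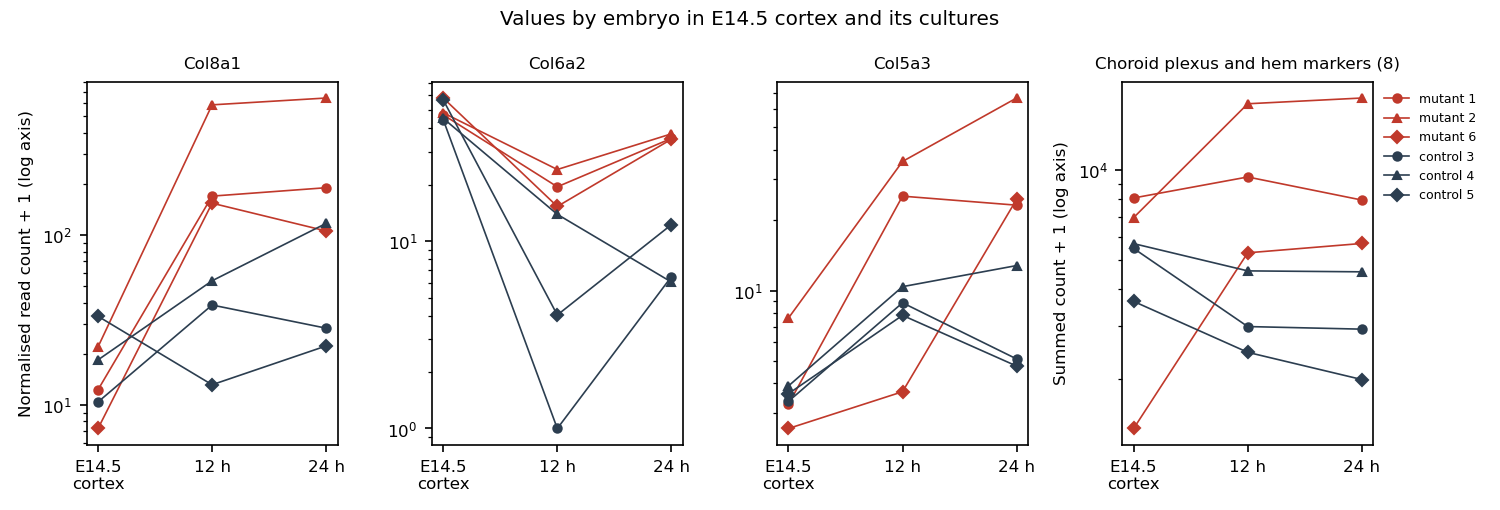
Lines join the values of each E14.5 embryo in cortex, 12 h and 24 h culture (normalised read count plus 1, log axis), in red for mutants 1, 2 and 6 and in dark blue for controls 3, 4 and 5. Col8a1 and the choroid plexus and hem marker sum are highest in mutant 2 in both cultures, and at 24 h the mutants lie above the controls for Col6a2 and Col5a3.

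At 24 h *Col6a2* had the smallest p of any member, at 34.4, 36.4 and 34 in mutants and 5.46, 5.06 and 11.3 in controls (log2 fold change 2.20 ± 0.52 SE, adjusted p = 0.0992). The mutants agreed closely and stood above every control, and the gene passed the filter through the mutants. DESeq2 called it (adjusted p = 0.0254). At 12 h it had 18.5, 23.1 and 14.3 in mutants and 0, 12.9 and 3.04 in controls (log2 fold change 2.34 ± 1.19 SE, adjusted p = 0.913), also without overlap, and in cortex the genotypes overlapped. *Col6a1* was 14.3, 21.3 and 14 in mutants and 4.1, 6.74 and 5 in controls at 24 h (log2 fold change 1.48 ± 0.65 SE, adjusted p = 0.432). *Col5a3*, a type V chain nearly silent in cortex (1.57 to 6.62 at E14.5), had 22.2, 65.8 and 23.6 in mutants and 4.1, 11.8 and 3.75 in controls (log2 fold change 2.31 ± 0.63 SE, adjusted p = 0.151) and was called by DESeq2 (adjusted p = 0.0272). *Col5a3* was named after its values were seen. In the controls 1 read was worth up to 1.69, so several of these values are a few reads.

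The type I chain *Col1a1* had 51.6, 44.5 and 70.7 in mutant and 12.3, 18.5 and 40.0 in control 24 h cultures (log2 fold change 1.34 ± 0.43 SE, adjusted p = 0.261), without overlap. At 12 h it had 34.1, 54.7 and 59.1 in mutants and 26.7, 29.4 and 15.9 in controls (log2 fold change 1.01 ± 0.50 SE, adjusted p = 0.913). *Col4a1* had 46.8, 50.5 and 66.3 in mutants and 15.7, 36.4 and 33.4 in controls at 12 h (log2 fold change 0.98 ± 0.49 SE, adjusted p = 0.913), and 60.2, 116 and 81.2 in mutants and 54.6, 48.9 and 45 in controls at 24 h (log2 fold change 0.74 ± 0.29 SE, adjusted p = 0.38), without overlap at either time. *Col4a2* gave 1.13 ± 0.54 at 12 h, without overlap, and 0.78 ± 0.57 at 24 h, with overlap, and 0.14 without control 3. *Col18a1* gave 0.76 ± 0.39 and 0.92 ± 0.33, and overlapped at both times, and without mutant 2 the 24 h value was 0.60. *Col5a1* (0.62 ± 0.23) and *Col27a1* (1.11 ± 0.38) did not overlap at 24 h, when *Col11a1* had 272, 387 and 293 in mutants and 235, 334 and 291 in controls. *Col22a1* alone was lower without overlap at 12 h, at 14.6, 10.5 and 1.79 against 22, 45.8 and 16.7, where 5.94% of all genes were lower without overlap.

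Mural cell marker sums did not overlap between the genotypes at 24 h either, at 98.9, 211 and 114 in mutants and 35.5, 30.3 and 52.5 in controls. *Tagln* made 31.4% of the mutant sum, and only 1 of the 10 genes averaged 10 or more in controls. Of 4 mural markers tested 0 passed. At 12 h the mural sums overlapped, at 170, 348 and 72.6 in mutants and 53.5, 88.1 and 58.5 in controls. Meningeal marker sums at 24 h were 148, 151 and 218 in mutants and 111, 167 and 131 in controls, with overlap. Endothelial sums at 24 h were 81.7, 209 and 86.4 in mutants and 72.4, 135 and 76.3 in controls, also with overlap. Liver transcripts summed to 111, 152 and 355 in mutants and 6.83, 1.69 and 5 in controls. The part of these, of depth and of the *Gm42418* share in the collagen values was not tested.

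Whether the genotype difference changed with age or culture was tested with interaction terms, and limma called none. With age, 0 of 30 members passed and 3 had an unadjusted p under 0.05, where 0.00% of 13650 genes passed and 7.84% had such a p. The smallest was *Col15a1* (log2 fold change -0.96 ± 0.40 SE, adjusted p = 0.62), and *Col22a1* gave 0.77 ± 0.36. Between 24 h culture and E14.5 cortex, 0 of 29 passed with limma, with edgeR, with DESeq2 or with the embryo as a block. Over all genes limma and edgeR called 0 of 13579, DESeq2 20 of 13562 and the embryo block 6 of 13579. With limma 5 members had an unadjusted p under 0.05, where 6.16% of all genes had such a p. *Col6a2* led (log2 fold change 2.13 ± 0.47 SE, adjusted p = 0.28), followed by *Col8a1* (log2 fold change 3.05 ± 0.94 SE, adjusted p = 0.693). Between 24 and 12 h, 0 of 22 passed with any of these tests and 0 had an unadjusted p under 0.05, where 0.00% of 13359 genes passed and 2.38% had such a p. *Col5a1* came first there (log2 fold change 0.82 ± 0.41 SE, adjusted p = 1).

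The proteins that fold and modify collagen moved with it in part. With age 14 of 20 tested genes of the folding and modification list fell and 0 rose, with a median log2 fold change of -0.74. *Serpinh1*, the collagen chaperone HSP47, went from a range of 323 to 857 to one of 103 to 234 (log2 fold change -1.48 ± 0.24 SE, adjusted p = 9.23e-05), and *Plod2*, a lysyl hydroxylase, and *P4hb*, a subunit of prolyl hydroxylase, fell by 1.17 and 0.70 on the log2 scale. On culture 8 of 19 fell and 2 rose: *Serpinh1* gave -1.72 ± 0.27 and *Sparc*, a collagen-binding matrix protein, -1.88 ± 0.20, whereas *Plod2* rose (0.83 ± 0.17) as did *Plod3* (0.82 ± 0.23). In 24 h cultures *Sparc* was the only gene of the list called between genotypes, at 771, 1860.3 and 831 in mutants and 269, 442 and 339 in controls (log2 fold change 1.63 ± 0.27 SE, adjusted p = 0.0273). *Serpinh1* had 60.9, 65.8 and 72.5 in mutants and 34.1, 15.2 and 23.8 in controls there, without overlap, but did not pass (adjusted p = 0.109).

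Of the processing and crosslinking list, 4 of 9 tested genes fell with age and 1 rose, led by the lysyl oxidase relative *Loxl2* (-2.36 ± 0.17) and the procollagen enhancer *Pcolce* (-2.17 ± 0.32). *Adamts3*, a procollagen N-proteinase, rose with age (1.17 ± 0.19) and on culture (1.11 ± 0.23). Of 7 genes of this list tested on culture 2 rose, *Adamts3* and *Pcolce2*, and 3 fell, *Pcolce*, *Lox* and *Loxl1*. Basement membrane partners fell in 8 of 13 with age, led by *Pxdn*, *Lama1* and *Hspg2*, and in 9 of 13 on culture, led by *Nid1* (-2.56 ± 0.25), *Lama4* and *Nid2*, and 0 rose in either. Fibril partners fell in 5 of 8 with age and 5 of 7 on culture, and 1 rose in each: the small proteoglycan *Dcn* rose with age (1.77 ± 0.14) and the fibrillin *Fbn2* rose on culture (0.72 ± 0.18), where *Dcn* fell (-3.65 ± 0.37). Collagen receptors fell in 4 of 8 with age and 2 of 5 on culture, and 1 rose with age. The protease list also holds the TIMP inhibitors of these enzymes. With age 5 of its 8 tested genes fell, led by *Mmp2*, *Timp3* and *Timp1*, and 3 rose, *Mmp9*, *Mmp16* and *Timp2*. On culture 2 of 8 fell, *Mmp9* and *Timp3*. In 12 h cultures 10 basement membrane and 5 fibril partners averaged 10 or more. The other tested partners passed the filter through the cortices. The shares of all genes called in these comparisons are given above, and apart from *Sparc* no gene of these 6 lists passed between genotypes in any of the sample types.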

How the data were processed

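Total RNA was sequenced from 24 mouse samples as QuantSeq 3′ FWD libraries, a stranded 3′ end method. Per the study's methods and the submitters' processing notes, the authors checked reads with FastQC 0.11.7, aligned them to GRCm38 with TopHat 2.0.10 (Bowtie 1.0.0; SAMtools version 0.1.19), counted them per GENCODE vM20 gene with HTSeq 0.6.1, and divided each library by a DESeq2 size factor. The deposited values are this signal, a normalised read count, in a single table, and all its columns of libraries were used.

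Groups came from the labels. Values were tested as log2(value + 1) with limma 3.58.1 (R 4.3.3, trend) and Benjamini-Hochberg adjustment at 0.05 over every gene whose compared libraries averaged 10 or more, so fold changes of low genes are understated. In 23 libraries 100.0% of values above 0 came out as whole reads (tolerance 1e-06), and edgeR 4.0.16 and DESeq2 1.42.0 were run on those reads as alternatives, except where E11.5 libraries entered, since 1 read of control D was worth 1.01, too near 1 for the recovery to be checked. Tables and figures were made with Python 3.11.15, pandas 2.3.3 and matplotlib 3.10.9. On simulated data for the E14.5 genotype comparison, limma recovered 121 of 200 genes changed 2-fold (10 false calls, 13475 genes) and 181 of 200 changed 4-fold (17 false calls, 13448 genes). No pair of libraries held identical values.

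The cortex and both cultures of an embryo share the animal, so a model blocking on embryo was an alternative. Over 18 such pairs the correlation of deviations from group means was -0.11 to 0.24 (median 0.14). Other alternatives changed the pseudocount (0.1, 5), the filter (none, 50), the scaling (TMM, quantile), the libraries in the fit, the litter block, and left out each replicate. E11.5 embryos are separate animals, and p-values measure the spread among 3 embryos a group. At E14.5 they hold no spread between litters, since the embryos are of a single litter by their titles.

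Collagens as the genes to report, with the gene lists and tests, were chosen with earlier results of these data known, although the rule for the members reads only symbols. Named with age and between 12 h culture and cortex were 13 main chains and up to 8 members called higher and 8 lower by p. In the genotype, culture time and interaction comparisons only some of the 13 were named, many of them for a small p. Up to 3 genes each way were named per list. Any other gene was named after its values were seen. This holds for *Col8a1*, *Col26a1*, *Col22a1*, *Col27a1*, *Col4a6* and *Col5a3* in the genotype comparisons. It also holds for *Col2a1* and the other low chains given by range, and for *Serpinh1*, *Clic6* and *Rspo3*.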

Additional observations from a re-analysis of the deposited data

How the results depend on the processing

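Counts of collagens called stayed within 1.5 times the main count except as follows. For genotype at 12 h the main count was 0, and 1 member (*Col8a1*) was called with no filter, when all 24 libraries were fitted jointly, and by DESeq2. For genotype at 24 h it was 0, and 1 was called with no filter (*Col8a1*) and 2 with DESeq2 (*Col5a3* and *Col6a2*), and leaving out 1 replicate gave 0 to 1. Over all genes DESeq2 called 9 of 13385 at 12 h and 182 of 13287 at 24 h. For genotype at E14.5 leaving out 1 replicate gave 0 to 1. Between 24 and 12 h 1 (*Col4a1*) was called with all 24 libraries. Between 12 h culture and E14.5 cortex 9 of 11 tested were called with a mean of at least 50, against 19 of 27, since fewer genes were tested. Leaving out 1 replicate turned the sign at E11.5 of the genotype log2 fold change of *Col1a1* (-0.18 to 0.88), *Col1a2* (-0.12 to 0.93), *Col4a1* (-0.024 to 0.179) and *Col4a2* (-0.0497 to 0.243), and on culture of *Col11a1* (-0.27 to 0.0036). The cause was not tested. With the embryo as a replicate block 20 members were called between 12 h culture and cortex (2 higher and 18 lower) against 19, and the block changed no other count. With age leaving out 1 replicate gave 19 to 26 calls, the most without control F. Type IV chains alone had medians of 1587, 1212, 130.4 and 118 in E11.5 and E14.5 cortex and 12 and 24 h culture. Control values of a few reads limit the folds in culture.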
